A study of Mus musculus with 7 samples.

Results

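The genes described here are Zbtb16, Il4, Il13, Icos and Cd40lg, 5 of the 32286 features counted in this single-cell RNA-seq series of mouse thymocytes. They were chosen by name, as the gene for the transcription factor PLZF and 4 genes of helper function that innate-like T cells use, with earlier results of these data known, and the rule itself uses no measured value. Each gene was followed as UMIs (unique molecular identifiers, 1 per captured transcript) scaled to counts-per-million (CPM), as the share of barcodes with at least 1 UMI, and as co-detection with the others. All values were taken in thymocyte barcodes, meaning barcodes with at most 1 UMI of the B cell genes Cd79a, Cd79b and Ms4a1. There were 71081 of these among the 90016 barcodes in the files.

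PLZF is a zinc finger transcription factor known to give invariant NKT cells and a subset of γδ T cells the capacity to release cytokines at once, without prior expansion. IL-4 and IL-13, encoded by neighbouring genes, are the hallmark cytokines of type 2 immunity, and a PLZF-expressing γδ T cell subset is known for making IL-4. ICOS is a costimulatory receptor of the CD28 family, and CD40 ligand is the surface protein through which helper T cells activate B cells and antigen-presenting cells.

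The study followed T cells through the split between the αβ and γδ lineages with 7 sorted populations, 1 library each. Of these libraries, 5 came from WT C57BL/6 mice aged 6 to 8 weeks: DN3a (unselected precursors), DN3b γδ− and DN4 γδ− (cells selected on the αβ path), DN3b γδ+ (selected γδ precursors) and DN4 γδ+ (immature γδ cells). The other 2, DN3 γδ− and DN3 γδint (intermediate surface γδ TCR), came from C57BL/6 mice of genotype Lat-/-TCRd-H2BEGFP, which lack the adaptor LAT and carry a green fluorescent reporter under the TCRδ chain gene. Every library received 500 sorted spleen B cells and was made with 10x Genomics 3′ v3 chemistry.

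The sorts set limits on what these genes can show. WT thymi were pooled and depleted of CD4+ and CD8+ cells with beads, only NK1.1− cells were sorted, and the γδ+ libraries were gated as CD24+CD44low, so the mature CD24−CD44high γδ thymocytes, known to contain NK-like cells, were gated out. CD71, a marker of dividing cells, served to set DN3b γδ− apart from DN3a and was part of the DN4 γδ− gate, but was not used for the γδ+ sorts, so the sort can set the cycling share of these 3 libraries. Since each group was 1 library, no test between groups was possible, and every interval given is a 95% interval for counting error only.

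Lat, the targeted gene, was at 357 to 648 CPM in the WT libraries, at 4.83 CPM (243 UMIs) in Lat-/- DN3 γδ− and at 0.899 CPM (34 UMIs) in Lat-/- DN3 γδint. Thymocyte barcodes numbered 5274 to 18515 per library, with medians of 5737.5 to 18506 UMIs, the lowest in Lat-/- DN3 γδint and the highest in DN4 γδ−. Ribosomal genes took 18.1% of UMIs in Lat-/- DN3 γδint against 27.6 to 33.7% in the others. Any 2 libraries shared 7 to 68 barcode sequences, at most 0.660%. All 10 T cell markers checked were detected in every library.

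Zbtb16 (ENSMUSG00000066687, minus strand, chr9:48654297-48836222 in mm10) was a gene of the γδ+ libraries. Its 407 UMIs in DN3b γδ+ gave 2.08 CPM (1.88–2.29), and its 710 UMIs in DN4 γδ+ gave 10.2 CPM (9.43–10.9). DN4 γδ− held 35 UMIs, or 0.144 CPM (0.1001–0.200). The remaining libraries were near 0, with 1 UMI in DN3a, 6 in DN3b γδ−, 1 in Lat-/- DN3 γδ− and 0 in Lat-/- DN3 γδint, where 3 counts, the limit that a count of 0 allows, would be 0.0793 CPM. DN4 γδ+, DN3b γδ+ and DN4 γδ− stood in that order with intervals that did not overlap, while DN3a and DN3b γδ− could not be told apart. The order of DN3b γδ+ and DN4 γδ− did not hold among noncycling barcodes, meaning those with at most 1 UMI of 5 cycling genes, where DN4 γδ− was at 2.47 CPM (1.13–4.70, 9 UMIs) and DN3b γδ+ at 1.38 CPM (0.662–2.54, 10 UMIs), with overlapping intervals. Together the DN4 γδ+ and DN3b γδ+ libraries held 61.2% and 35.1% of all 1160 Zbtb16 UMIs in thymocyte barcodes.

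**Figure D1:**
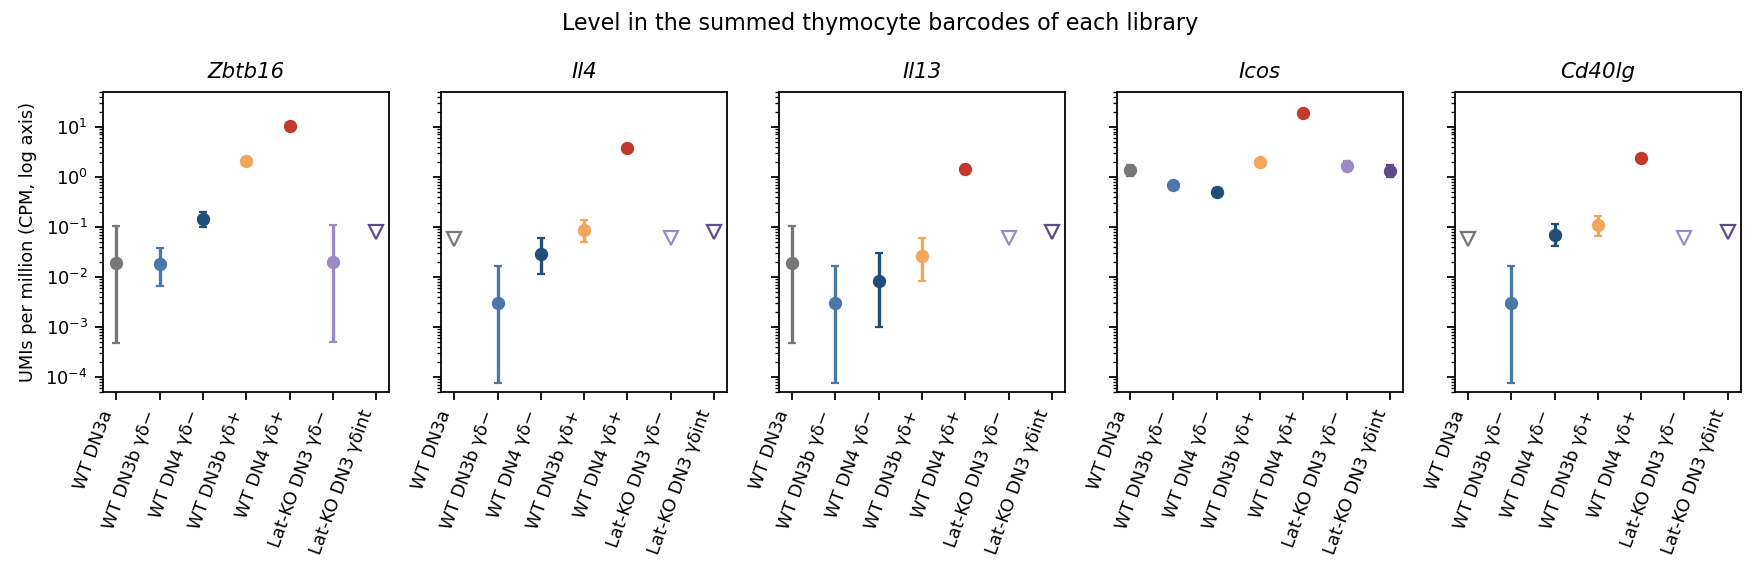
Level of each gene, in CPM on a log axis, in the summed thymocyte barcodes of each of the 7 libraries, with bars for the exact Poisson 95% interval and open triangles for libraries at 0, drawn at the level that 3 counts would give. DN4 γδ+ is the highest library for each of the 5 genes, and Icos is the gene with counts in all 7 libraries.

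The Zbtb16 UMIs were spread over 355 of 8703 barcodes in DN4 γδ+, a share of 4.08% (3.67–4.52), and over 305 of 12361 in DN3b γδ+, a share of 2.47% (2.20–2.76). DN3b γδ+ barcodes were deeper, with a median of 15392 UMIs against 6418. After every barcode was thinned to 4000 UMIs, and shallower barcodes were left out, the shares were 2.37% (2.02–2.75) of 6934 and 0.737% (0.585–0.917) of 10851. In DN4 γδ+ a single barcode held up to 9 Zbtb16 UMIs, and 72.7% of the UMIs lay in barcodes with 2 or more.

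Il4 (ENSMUSG00000000869, chr11:53602982-53618669) and Il13 (ENSMUSG00000020383, chr11:53631324-53634702) lie on the minus strand of mm10 with their starts 16.0 kb apart. Because their UMIs fell together in 1 library, the 250 bases before each RefSeq start are shown on GRCm38.p6, the assembly of mm10, in the direction of transcription. RefSeq had 2 windows for Il4, of which the one nearest to the gene start given above was taken, and its start lies 4 bases inside the gene. They span chr11:53618666-53618915 for Il4 and chr11:53634703-53634952 for Il13. Capitals mark the core letters GGAAA, or TTTCC on the other strand, that NFAT factors are known to bind in cytokine promoters.
Il4 promoter: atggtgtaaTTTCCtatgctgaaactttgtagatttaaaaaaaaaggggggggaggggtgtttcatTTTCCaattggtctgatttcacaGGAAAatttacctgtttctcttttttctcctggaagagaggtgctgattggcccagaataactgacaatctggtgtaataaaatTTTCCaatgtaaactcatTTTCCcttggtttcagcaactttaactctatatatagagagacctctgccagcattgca
Il13 promoter: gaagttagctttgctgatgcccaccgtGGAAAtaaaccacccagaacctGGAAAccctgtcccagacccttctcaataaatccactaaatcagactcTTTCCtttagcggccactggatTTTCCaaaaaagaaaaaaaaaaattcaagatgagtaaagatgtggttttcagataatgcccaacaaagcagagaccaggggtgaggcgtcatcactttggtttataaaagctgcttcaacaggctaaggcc
The Il4 window holds 5 such cores and the Il13 window 4. Among 32851 windows of the same length, 55.6% held at least 1 core, 0.390% held 5 or more and 1.59% held 4 or more. The letters TGCTGA, part of the site that MAF factors bind, or their reverse complement, occurred 3 times before Il4 and 1 time before Il13 and were in 16.1% of all windows. AGATAA, a form of the GATA site, was searched on both strands and occurred 1 time before Il13 and not before Il4, with 9.99% of all windows holding it. TATAAA, a form of the TATA box, was searched on the gene strand only. It occurred 1 time before Il13 and 0 times before Il4, with 7.59% of all windows holding it. These matches describe the letters in the windows, and binding was not measured.

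Il4 transcripts were almost confined to DN4 γδ+, which held 259 UMIs, or 3.71 CPM (3.27–4.19), and 91.2% of all 284 Il4 UMIs. DN3b γδ+ held 17 UMIs (0.0868 CPM), DN4 γδ− held 7 (0.0288 CPM), DN3b γδ− held 1, and DN3a and both Lat-/- libraries held 0. Below DN4 γδ+, DN3b γδ+ was above DN4 γδ− by 1.59 (0.25–3.11) on the log2 scale. In DN4 γδ+ the Il4 UMIs came from 130 barcodes (1.49%, 1.25–1.77), with up to 11 UMIs in a barcode. Thinned to 4000 UMIs, 0.894% of barcodes kept an Il4 UMI.

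Il13 had the same highest library at a lower count. DN4 γδ+ held 98 UMIs (1.40 CPM, 1.14–1.71) in 45 barcodes, with up to 8 in a barcode. DN3b γδ+ held 5 UMIs in 3 barcodes, DN4 γδ− held 2, DN3a and DN3b γδ− held 1 each, and both Lat-/- libraries held 0. At these counts the libraries other than DN4 γδ+ could not be ordered.

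Icos (ENSMUSG00000026009, plus strand, chr1:60977927-61000320) was the exception in having counts in every library, although outside DN4 γδ+ most of its shares were not separated from background. DN4 γδ+ held 1320 UMIs, or 18.9 CPM (17.9–19.95), in 839 barcodes, 9.64% of the library (9.03–10.3), and 7.20% after thinning. DN3b γδ+ was at 1.94 CPM (380 UMIs), Lat-/- DN3 γδ− at 1.63 (82 UMIs), DN3a at 1.34 (72 UMIs) and Lat-/- DN3 γδint at 1.32 (50 UMIs). Neighbours within this group of 4 could not be told apart, and the step from DN3b γδ+ to Lat-/- DN3 γδ− was 0.25 (−0.10 to 0.61) on the log2 scale. Cycling differed within this group, from 512 of 6818 barcodes in DN3a to 11344 of 12361 in DN3b γδ+. Among noncycling barcodes, DN3b γδ+ at 4.42 CPM (3.02–6.24) lay above Lat-/- DN3 γδ− at 1.67 (1.30–2.12), Lat-/- DN3 γδint at 1.46 (0.973–2.12) and DN3a at 1.44 (1.12–1.82). DN3b γδ− at 0.679 CPM (230 UMIs) and DN4 γδ− at 0.505 CPM (123 UMIs) were lower over all barcodes, with DN3b γδ− above DN4 γδ− by 0.43 on the log2 scale and Lat-/- DN3 γδint above DN3b γδ− by 0.96. Neither step held among noncycling barcodes, where DN3b γδ− was at 1.74 CPM (0.867–3.11) and DN4 γδ− at 1.65 (0.605–3.59), overlapping DN3a and both Lat-/- libraries, with DN3b γδ− now above Lat-/- DN3 γδint.

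Cd40lg (ENSMUSG00000031132, plus strand, chrX:57212143-57224042) also had DN4 γδ+ as its highest library. DN4 γδ+ held 164 UMIs, or 2.35 CPM (2.003–2.74), in 97 barcodes (1.11%, 0.905–1.36), with a maximum of 8 UMIs and 0.606% of barcodes after thinning. DN3b γδ+ held 21 UMIs (0.107 CPM) in 20 barcodes and DN4 γδ− held 17 (0.0698 CPM) in 11 barcodes. These libraries differed by 0.62 (−0.37 to 1.63) on the log2 scale, an interval that spans 0. Among noncycling barcodes Cd40lg was at 2.20 CPM (0.950–4.33, 8 UMIs) in DN4 γδ− and 2.22 CPM (1.77–2.75) in DN4 γδ+, so these could not be told apart. DN3b γδ− held 1 UMI, and DN3a and both Lat-/- libraries held 0.

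**Figure D2:**
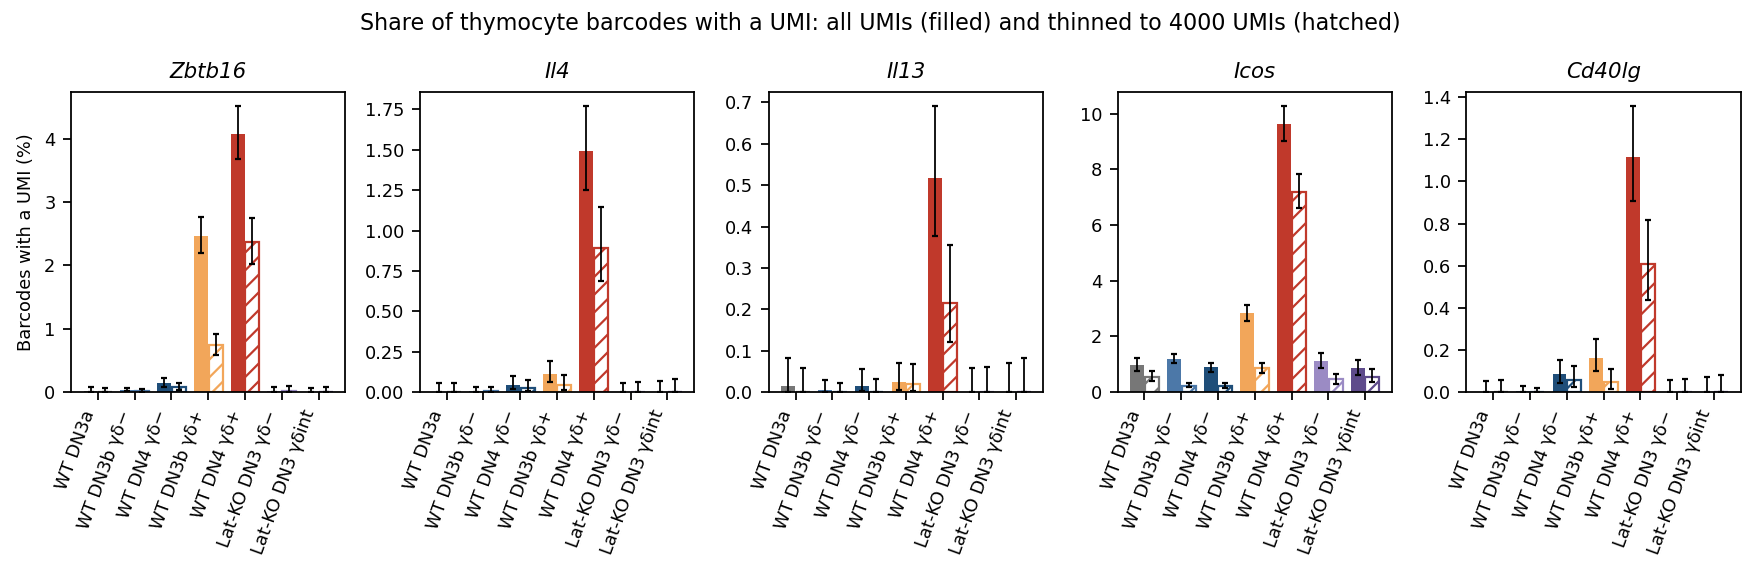
Share of thymocyte barcodes with at least 1 UMI of each gene in each library, in percent on a scale of its own for each gene, for all UMIs (filled bars) and after thinning to 4000 UMIs (hatched bars), with exact Clopper-Pearson 95% intervals. Thinning lowers the DN3b γδ+ share of Zbtb16 from 2.47 to 0.737% and leaves DN4 γδ+ the highest library for each gene.

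Spiked B cells, which should lack these transcripts apart from free RNA taken up in the droplet, gave the background. Over the 1118 B barcodes of all libraries there were 2 UMIs of Zbtb16, 1 of Il4, 2 of Icos and 0 of Il13 and Cd40lg. Both Zbtb16 UMIs and the Il4 UMI fell in the 143 B barcodes of DN4 γδ+, where the Zbtb16 share was thus 1.40%, with an upper bound of 4.96%, at a median of 3711 UMIs. The B barcodes of that library were at 3.29 CPM of Zbtb16 and its thymocyte barcodes at 10.2 CPM. With so few B barcodes the thymocyte share of 4.08% lay inside the interval of the B share, so for single Zbtb16 UMIs in DN4 γδ+ the share alone does not separate the cell types. The same was true of Il4 (1.49%, B barcodes up to 3.83%), Il13 (0.517%, up to 2.55%) and Cd40lg (1.11%, up to 2.55%), but not of Icos (9.64%, up to 3.83%). None of the 143 held more than 1 UMI of any of the 5 genes, while 161 thymocyte barcodes held 2 or more of Zbtb16 and 56 held 2 or more of Il4. The Zbtb16 shares of DN3a, DN3b γδ−, DN4 γδ− and Lat-/- DN3 γδ− (0.0147, 0.0324, 0.139 and 0.0155%) were below the share over all B barcodes, 0.179%. Their own B barcodes held 0 Zbtb16 UMIs, which allows shares of up to 1.14 to 2.54% by 3 counts and up to 1.39 to 3.08% by the exact intervals, so these libraries were not separated from background by their shares. For DN3b γδ+ the bound decides, since 0 of 131 B barcodes allow up to 2.29% by 3 counts, under the thymocyte share of 2.47%, and up to 2.78% by the exact interval, which covers it. Median depths there were 3614 UMIs in B barcodes and 15392 in thymocyte barcodes, and 232 of its 305 Zbtb16 barcodes held 1 UMI, while 73 held 2 or more. Il4 in 0.113% and Cd40lg in 0.162% of DN3b γδ+ barcodes lay within the intervals over all B barcodes, which reach 0.497% and 0.329%. The Icos shares outside DN4 γδ+, 0.853 to 2.83%, were above the share over all B barcodes (0.179%, up to 0.645%), but B barcodes were shallower, with medians of 2447.5 to 3711 UMIs, and in each library but DN3b γδ+ the Icos share lay inside the interval of its own B barcodes, whose upper bounds were 1.39 to 4.63%. DN4 γδ− had 8 barcodes with 2 or more Zbtb16 UMIs, holding 71.4% of its Zbtb16 UMIs, and a share of 0.630% among its 794 noncycling barcodes. The 472 barcodes of DN4 γδ+ that were neither thymocyte nor B barcodes, and were left out, held Zbtb16 at 12.7 CPM (68 UMIs) and Icos at 11.4 CPM (61 UMIs).

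The step from DN3b γδ+ to DN4 γδ+ asks what changes as selected γδ precursors become immature γδ cells. All 5 genes were over 2-fold higher in DN4 γδ+, where 22.2% of the 15721 genes compared were, and 0 were over 2-fold lower, where 8.31% of genes were. Markers of other cells moved in the same comparison. Of NK markers compared 4 of 4 were higher (median log2 ratio 2.14), and of B cell markers 6 of 10 (1.10). Of group 2 innate lymphoid cell markers 2 of 5 were higher (0.28), and of myeloid markers 3 of 5 were higher and 1 lower (1.49). Higher too were 1 of 1 mast cell marker (1.17) and 4 of 8 in the αβ T and NKT list (1.66), which holds Cd40lg itself. Of plasmacytoid dendritic cell markers 1 of 4 was higher (0.32). The part of these markers in the result was not tested. Their summed levels went from 4.47 to 21.2 CPM for NK, with Ncr1 at 0 in both libraries, from 160 to 442 CPM for B cells, from 25.8 to 84.6 CPM for group 2 innate lymphoid cells, with Nmur1 at 0 in both, from 2.37 to 2.68 CPM for myeloid cells, from 0.286 to 0.659 CPM for mast cells and from 2773 to 3584 CPM for αβ T and NKT cells. For plasmacytoid dendritic cells they went from 336 to 1062 CPM. The fold was 4.89 (4.32–5.54) for Zbtb16, 9.74 (8.68–10.9) for Icos, 21.9 (13.9–36.3) for Cd40lg, 42.7 (26.2–74.5) for Il4 and 55.0 (22.8–173) for Il13. The interval for Zbtb16 lay below those of the 4 other genes over all barcodes. Dividing cells made up a smaller part of DN4 γδ+ (2426 of 8703 barcodes with 2 or more UMIs of 5 cycling genes) than of DN3b γδ+ (11344 of 12361), and the folds changed among noncycling barcodes. There the log2 ratio was 2.48 for Zbtb16 (2.29 over all barcodes), 2.43 for Icos (3.28), 3.01 for Cd40lg (4.45) and 3.76 for Il4 (5.42). For Il13, at 0 UMIs in noncycling DN3b γδ+, it was at least 1.47 (5.78). The ratios rested on 10 Zbtb16, 32 Icos, 2 Cd40lg and 2 Il4 UMIs in noncycling DN3b γδ+, so no order of the genes is read from them. With the level of the B barcodes subtracted, the log2 ratio of Il4 was 4.57, and after thinning that of Il13 was 3.97.

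At the DN4 stage, γδ+ and γδ− cells can be set side by side. All 5 genes were over 2-fold higher in DN4 γδ+ than in DN4 γδ−, against 26.7% of the 16532 genes compared, and 0 were over 2-fold lower, against 12.1%. Here too markers of other cells moved, and their part in the result was not tested. Of NK markers compared 4 of 4 were higher (0.661 CPM summed in DN4 γδ− and 21.2 in DN4 γδ+). Higher too were 3 of 4 of group 2 innate lymphoid cells (10.4 and 84.6 CPM, with Klrg1 and Nmur1 at 0 in both) and 7 of 10 of B cells (279 and 442 CPM). In the αβ T and NKT list 4 of 8 were higher and 2 lower, and of 7 myeloid markers 3 were higher and 3 lower. Of mast cell markers 1 of 1 was higher (0.156 and 0.659 CPM), and of plasmacytoid dendritic cell markers 1 of 4. Of erythroid markers 4 of 4 were lower (170 and 35.7 CPM). The fold was 33.6 (20.4–59.1) for Cd40lg, 37.4 (31.1–45.4) for Icos, 70.7 (50.4–102) for Zbtb16 and 129 (61.7–324) for Il4, and for Il13 the ratio of 171 (46.0–1430) rested on 2 UMIs in DN4 γδ−. Among the few DN4 γδ− barcodes with at most 1 UMI of the cycling genes (794, at a median of 3268 UMIs) there were 9 UMIs of Zbtb16 and 8 of Cd40lg. Between the noncycling barcodes of both libraries the log2 ratio was 1.64 for Zbtb16 and 0.01 for Cd40lg, where it was 6.14 and 5.07 over all barcodes. It was 3.85 for Icos (5.23 over all barcodes), and at least 2.18 for Il4 (7.01) and 0.48 for Il13 (7.42), which had 0 UMIs in noncycling DN4 γδ− barcodes.

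At the DN3b stage, 4 genes were over 2-fold higher in DN3b γδ+ than in DN3b γδ−, where 12% of the 16306 genes compared were, and 0 were over 2-fold lower, beside 7.82%. Markers of other cells moved here as well, and their part was not tested. Of NK markers compared 3 of 3 were higher (0.443 CPM summed in DN3b γδ− and 4.47 in DN3b γδ+, with Ncr1 and Klra8 at 0 in both). Of group 2 innate lymphoid cell markers 4 of 5 were higher (16.8 and 25.8 CPM, with Nmur1 at 0 in both). In the αβ T and NKT list 4 of 8 were higher and 2 lower, and of B cell markers 3 of 10 were higher and 1 lower. Of myeloid markers 2 of 5 and of plasmacytoid dendritic cell markers 1 of 4 were higher. After thinning 2 of the 5 genes were over 2-fold higher. Il4, then in 5 barcodes of DN3b γδ+ and 1 of DN3b γδ−, and Cd40lg, in 5 and 0, fell under the minimum of 10 UMIs and were not counted. The Il4 and Cd40lg shares of DN3b γδ+ were under the upper bounds of the few B barcodes, so they were not separated from background. Zbtb16 differed by 117-fold (53.4–322) and Icos by 2.86-fold (2.42–3.38). Among noncycling barcodes DN3b γδ− held 0 Zbtb16 UMIs, and the log2 ratio was at least 1.54. The ratios of 29.4 (4.61–1229) for Il4 and 36.3 (5.84–1502) for Cd40lg each rested on 1 UMI in DN3b γδ−, and Il13 had under 10 UMIs in both libraries together. Against DN3a, Zbtb16 had a ratio of 112 (19.9–4421), resting on 1 UMI. Of the 4 genes compared, without Il13, it alone was called past 2-fold over all barcodes, beside 13.3% of genes, and 0 were over 2-fold lower, beside 25.4%. Higher too were 4 of 4 erythroid (median log2 ratio 7.22) and 2 of 3 NK markers. Lower were 3 of 5 myeloid, 2 of 10 B cell and 2 of 4 plasmacytoid dendritic cell markers. In the αβ T and NKT list 3 of 8 were higher and 1 lower, and the part of these markers was not tested. Icos was at 1.45-fold (1.12–1.89) over all barcodes but passed 2-fold among noncycling barcodes, where its log2 ratio was 1.62 against 0.53. Il4 and Cd40lg, at 0 in DN3a, were at least 1.55-fold and 1.92-fold higher, bounds that do not tell whether they passed 2-fold.

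In the Lat-/- libraries, Icos was the only one of the 5 genes with more than 1 UMI. Icos was at 0.811-fold (0.559–1.17) in Lat-/- DN3 γδint relative to Lat-/- DN3 γδ−, and at 1.22-fold (0.876–1.69) in Lat-/- DN3 γδ− relative to DN3a, and both intervals span 1. The share of all genes over 2-fold lower was 6.02% in the first of these comparisons and 5.44% in the second, and 6.32% and 6.62% were over 2-fold higher. Icos, the only 1 of the 5 genes with enough UMIs to be compared, was in none of these shares. Relative to DN3b γδ+, Zbtb16 in Lat-/- DN3 γδint was at most 0.0382-fold, Cd40lg at most 0.740-fold and Il4 at most 0.914-fold, taking 3 counts for the 0, and Icos was at 0.681-fold (0.497–0.917). Zbtb16 was thus the 1 gene past 2-fold lower, beside 11% of the 15410 genes compared, and 0 were over 2-fold higher, beside 32.4%. Icos passed it too among noncycling barcodes, with a log2 ratio of −1.59, and with TMM scaling, at −1.30, against −0.55, and with TMM scaling so did Cd40lg, at −1.18 or below. An Il13 level as low as that of DN3b γδ+, 0.0255 CPM, was not detectable at this depth, since 3 counts would be 0.0793 CPM. Markers of other cells moved between these 2 libraries too, and their part was not tested. In Lat-/- DN3 γδint 4 of 4 erythroid (median log2 ratio −1.98), 2 of 5 group 2 innate lymphoid cell and 1 of 3 NK markers were lower. Of myeloid markers 2 of 5 were higher, of B cell markers 2 of 10 higher and 1 lower, and in the αβ T and NKT list 3 of 8 higher and 2 lower. Of 4 plasmacytoid dendritic cell markers 2 were higher and 1 lower.

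Zbtb16 was higher in the cycling barcodes of DN4 γδ+, which were also deeper. In DN4 γδ+, Zbtb16 was at 13.0 CPM in the 2426 cycling barcodes (8.20% with a UMI) and at 7.70 CPM in the 6277 others (2.49%), where the median depths were 12270 and 5700 UMIs. Icos went the other way, at 13.2 CPM in cycling barcodes and 23.9 CPM in the others. The cytokine genes and Cd40lg differed less, with 3.67 against 3.74 CPM for Il4, 1.70 against 1.15 CPM for Il13 and 2.50 against 2.22 CPM for Cd40lg, each pair with overlapping intervals. In DN3b γδ+, Zbtb16 was at 2.11 CPM (1.90–2.32) in cycling barcodes and 1.38 CPM (0.662–2.54) in the 1017 others, with overlapping intervals, and Icos at 1.85 and 4.42 CPM.

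In DN4 γδ+ the 5 genes were found in the same barcodes far more than in the rest of the library. Among the 355 barcodes with Zbtb16, 23.4% held Il4, 8.73% Il13, 33.5% Icos and 14.1% Cd40lg. Among the 8348 without it the shares were 0.563%, 0.168%, 8.62% and 0.563%. Barcodes with Zbtb16 were deeper, at a median of 14448 against 6237.5 UMIs, but the contrast remained at equal depth. In barcodes thinned to 4000 UMIs, 16.5% of the 164 with Zbtb16 held Il4 (11.1–23.0) against 0.517% of the 6770 without it. The thinned shares were 4.88% against 0.103% for Il13, 20.7% against 6.87% for Icos and 8.54% against 0.414% for Cd40lg, each with intervals that did not overlap.

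**Figure D3:**
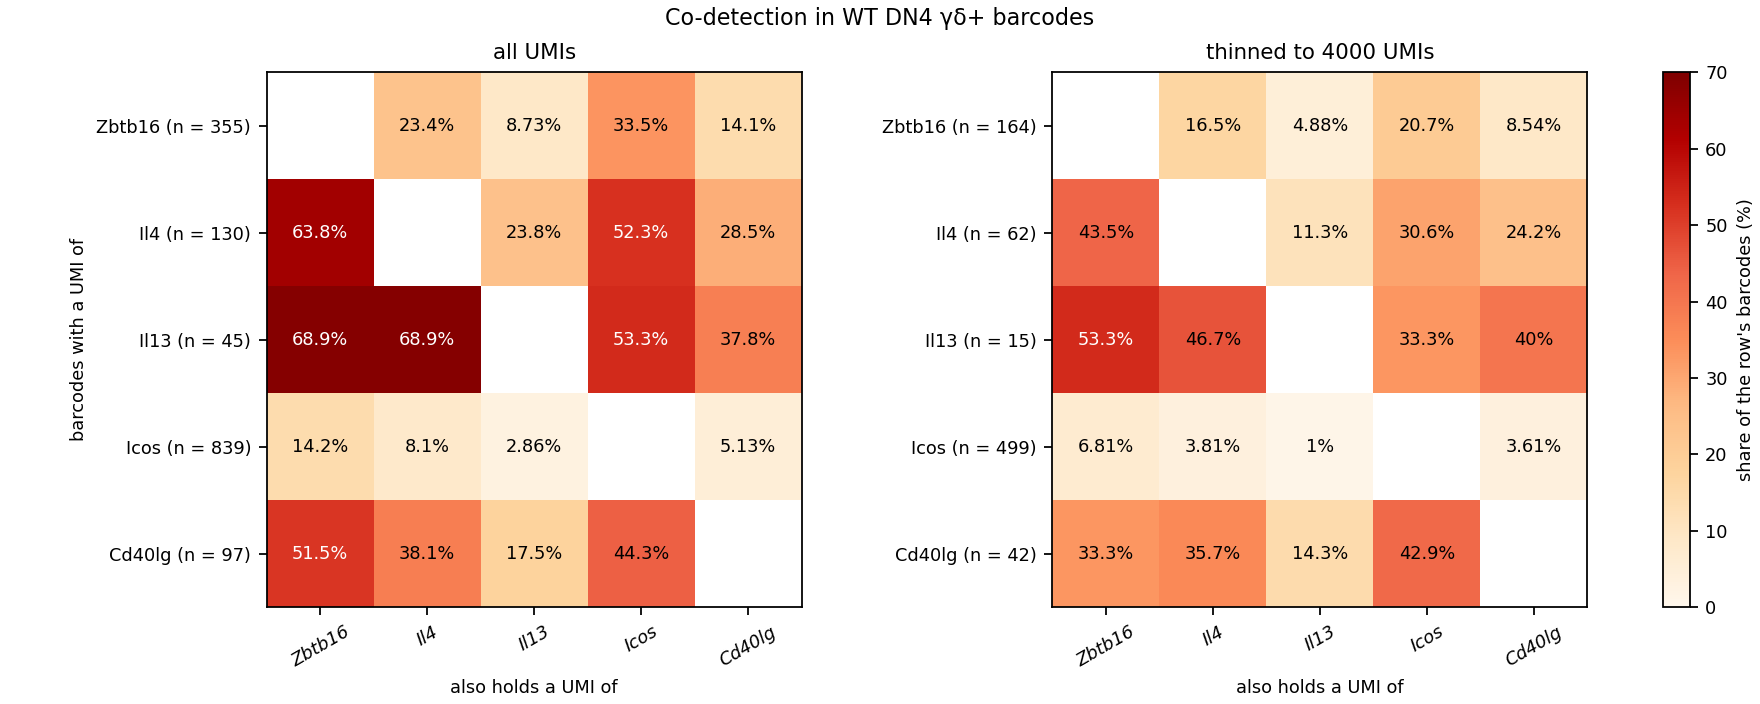
Co-detection in DN4 γδ+ with all UMIs (left) and thinned to 4000 UMIs (right), where each cell gives the percent of the barcodes holding the row's gene, n in the row label, that also held the column's gene. Il4, Il13 and Cd40lg barcodes held Zbtb16 in 51.5 to 68.9% of cases before thinning, and Icos barcodes in 14.2%.

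Il4 and Il13 were in fewer barcodes than Zbtb16, so the same shared barcodes made up a larger share of theirs. Of the 130 Il4 barcodes, 63.8% (55.0–72.1) held Zbtb16, 52.3% Icos, 28.5% Cd40lg and 23.8% Il13. Of the 45 Il13 barcodes, 31 held Zbtb16 and 31 held Il4. Just 23.1% of Il4 barcodes and 15.6% of Il13 barcodes held none of the other 4 genes, compared with 36.1% for Cd40lg, 54.4% for Zbtb16 and 83.2% for Icos. These shares also depend on how common each gene was and on depth. Median depths were 12877 UMIs for Il4, 12898 for Il13 and 6529 for Icos barcodes. All 5 genes were present in 10 barcodes, 4 of them in 28, 3 in 43 and 2 in 106.

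In DN3b γδ+ most barcodes with a Zbtb16 UMI held no UMI of the others. Of its 305 Zbtb16 barcodes, 89.8% held none of the other 4 genes, 26 held Icos, 4 held Cd40lg, 2 held Il4 and 0 held Il13, which allows a share of up to 0.984%. The Icos share was 8.52% with Zbtb16 and 2.69% without it, at median depths of 19584 and 15272.5 UMIs. Thinned to 4000 UMIs it was 3.75% (0.780–10.6, 3 of 80) and 0.836% (0.672–1.03), with overlapping intervals. Of the 350 Icos barcodes in that library 91.7% held none of the other genes. In DN3a, DN3b γδ− and both Lat-/- libraries every Icos barcode (66, 219, 72 and 45) held Icos alone. The other 4 genes had few or no UMIs in those libraries, so sharing could hardly have been seen there.

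The more Zbtb16 UMIs a DN4 γδ+ barcode held, the more often the others were found, as the plot by number of Zbtb16 UMIs shows. Il4 was in 0.563% of barcodes with 0 Zbtb16 UMIs, 13.9% with 1, 19.0% with 2 and in 41 of the 82 (38.7–61.3%) with 3 or more. Icos was in 8.62, 22.2, 40.5 and 53.7% of them. Il13 reached 22.0% and Cd40lg 28.0% in barcodes with 3 or more. Depth and cycling changed along the same grades, with median depths of 6237.5, 12920, 13875 and 17210 UMIs and noncycling shares of 73.3, 45.4, 48.1 and 36.6%, and their part in the grading was not tested. As CPM over the barcodes concerned, which takes depth into account, Il4 was at 1.12, 21.1, 29.7 and 58.0 CPM along the grades, and Icos at 14.7, 39.4, 67.5 and 115 CPM.

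**Figure D4:**
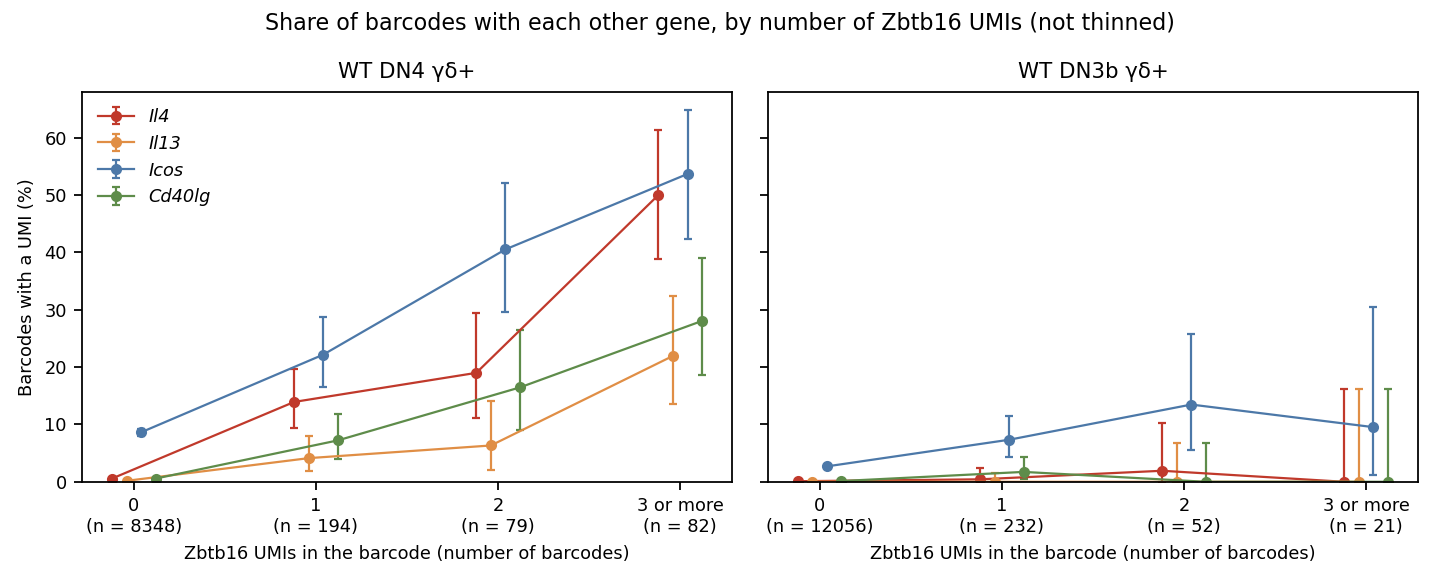
Share of barcodes, in percent and not thinned, with a UMI of Il4, Il13, Icos or Cd40lg against the number of Zbtb16 UMIs in the barcode, in DN4 γδ+ (left) and DN3b γδ+ (right), with exact Clopper-Pearson 95% intervals. In DN4 γδ+ Il4 goes from 0.563% at 0 Zbtb16 UMIs to 41 of 82 barcodes at 3 or more, while in DN3b γδ+ it was in 1 of 232 barcodes at 1 UMI, 1 of 52 at 2 and 0 of 21 at 3 or more, where the interval drawn reaches 16.1% and 3 counts would be 14.3%.

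The barcodes with these genes in DN4 γδ+ carried the γδ receptor transcript, as did nearly all barcodes of that library, so its share does not set them apart. At 4000 UMIs Trdc, the TCRδ constant gene, was in 164 of 164 Zbtb16 barcodes and 98.7% of those without, in 61 of 62 Il4 barcodes, 99.6% of Icos barcodes and 41 of 42 Cd40lg barcodes, each with intervals that overlap those of the barcodes without the gene. Over all UMIs, the Trdc level was 1379 CPM with Zbtb16 and 1885 CPM without it. With and without the gene it was 1540 and 1852 CPM for Il4, 1132 and 1851 for Il13, and 1419 and 1853 for Cd40lg. For Icos it went the other way, at 1923 and 1834 CPM. Trac, the TCRα constant gene, was at 104 CPM with Zbtb16 and 74.7 CPM without it. In DN3b γδ+, Trdc was in 75 of 80 thinned Zbtb16 barcodes and 94.4% of the others.

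The few barcodes with these genes in DN4 γδ− were higher in Trac. Trac was at 109 CPM in the 18 Zbtb16 barcodes, 273 CPM in the 6 Il4 barcodes and 288 CPM in the 11 Cd40lg barcodes, where the barcodes without each gene were at 15.8 CPM. Trdc was seen in 12 of the 18 (41.0–86.7%), 2 of the 6 (4.33–77.7%) and 4 of the 11 (10.9–69.2%), compared with 80.6% of barcodes without each of these genes, and the barcodes with them were shallower, with medians of 13210.5, 11865 and 8019 UMIs against 18506 or more. In the 18 Zbtb16 barcodes 6 of 10 B cell markers were seen, summing to 832 against 278 CPM without Zbtb16, with Cd79a, Ms4a1 and Cd22 among those at 0, and 2 of 8 markers of group 2 innate lymphoid cells, at 28.6 against 10.3 CPM, and their part was not tested. These barcodes shared genes as well, since 5 of the 18 Zbtb16 barcodes held Il4, 5 held Cd40lg, and none of the 6 Il4 barcodes held Il4 alone. The number of such barcodes was too small for further description.

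Other genes of innate-like T cells were then read in DN4 γδ+ barcodes at 4000 UMIs, with and without Zbtb16. A share is called above or below where the exact intervals of both sets do not overlap, which describes this 1 library and is no test between replicates. Of all 8929 genes in at least 2% of barcodes, 7.11% were above in barcodes with Zbtb16 and 6.75% below. Of 13 transcription factors detected in at least 2% of barcodes, 1 was above and 8 were below. Lef1, a partner of β-catenin, was in 77.4% of barcodes with Zbtb16 and 60.8% without. Tcf7, its close relative, was in 55.5 and 83.1%, and Sox4 in 64.0 and 86.6%. Maf, known as a factor of IL-17-producing γδ cells, was in 23.8 and 45.5%. Gata3, the factor of type 2 cytokine genes, was lower too, in 43.3 and 60.8%, as were Runx3 in 23.2 and 43.2%, Rora in 12.2 and 23.7% and Zbtb20 in 13.4 and 27.6%. Before thinning, Gata3 was in 72.9% of the deeper barcodes with Zbtb16 but not Icos, and in 66.3% with neither. Sox4 (94.5 and 83.8%), Tcf7 (86.4 and 83.9%), Runx3 and Zbtb20 were also higher there. Maf (26.3 and 49.5%), Rora and Eomes stayed lower. Lower shares of Gata3 and these 4 genes thus hold at equal depth only. Eomes, a factor of interferon-γ-producing cells, was in 0 of the 164 barcodes (up to 1.83%) and in 2.94% of the rest. Zbtb7b (ThPOK), in fewer than 2% of all barcodes, was in 5.49% of those with Zbtb16 and 0.369% of those without.

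The list of genes downstream of TCR signalling ran the other way, with 6 of 9 above and 0 below. It does not hold Cd69, which the paper counts among markers of signal strength and which was below, as given with the receptors. Among them Egr1 was in 17.7 and 9.45% of barcodes, Egr3 in 11.6 and 2.04%, and their corepressor Nab2 in 20.7 and 8.05%. Id3, an inhibitor of E proteins that Egr factors are known to induce, was in 83.5 and 68.3%, and its relative Id2 in 51.2 and 17.4%. Nfatc1, which responds to calcium, was in 28.0 and 19.1%, and Egr2, in fewer than 2% of all barcodes, was in 7.93 and 1.17%. Nr4a1, Nr4a3 and Nfatc2 were neither above nor below. Nr4a1, another such marker in the paper, was in 17.6% of barcodes with both Zbtb16 and Icos, 26.9% with Zbtb16 but not Icos and 24.9% with neither gene.

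Receptors were divided. Of 9 costimulatory genes 5 were above, with Cd28 in 61.0 and 29.1%, Pdcd1 (PD-1) in 59.8 and 39.3%, Tnfrsf9 in 14.6 and 7.47%, Btla in 9.15 and 2.47% and Tnfsf8 in 7.32 and 2.75%, and 2 were below, with Cd27 in 72.6 and 80.8% and Tnfsf11 (RANKL) in 10.98 and 18.2%. Of 9 cytokine receptor genes, Il7r (48.2 and 20.7%), Il2rb (40.2 and 18.7%) and Il18r1 (8.54 and 3.06%) were above, and Il4ra, the receptor chain for IL-4 and IL-13, was in 0 of 164 and in 3.29%. In the SLAM family, whose members signal through the adaptor SAP, Slamf6 was above (40.2 and 17.6%) and Slamf1 below (1.22 and 5.33%). Cd160 (40.2 and 16.2%) and Cxcr6 (20.1 and 5.95%) were above, and Ccr9 (39.6 and 80.5%), Cd24a (15.2 and 30.1%) and Cd69 (29.3 and 46.3%) below. The γ constant gene Tcrg-C4 was in 87.2 and 72.7% of barcodes, while for Tcrg-V1 (18.9 and 13.1%) the intervals overlapped. Since thinned barcodes with Zbtb16 had been deeper before thinning, at a median of 12799 against 7402 UMIs, and were more often cycling, the part of cell state in these differences was not tested.

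**Figure D5:**
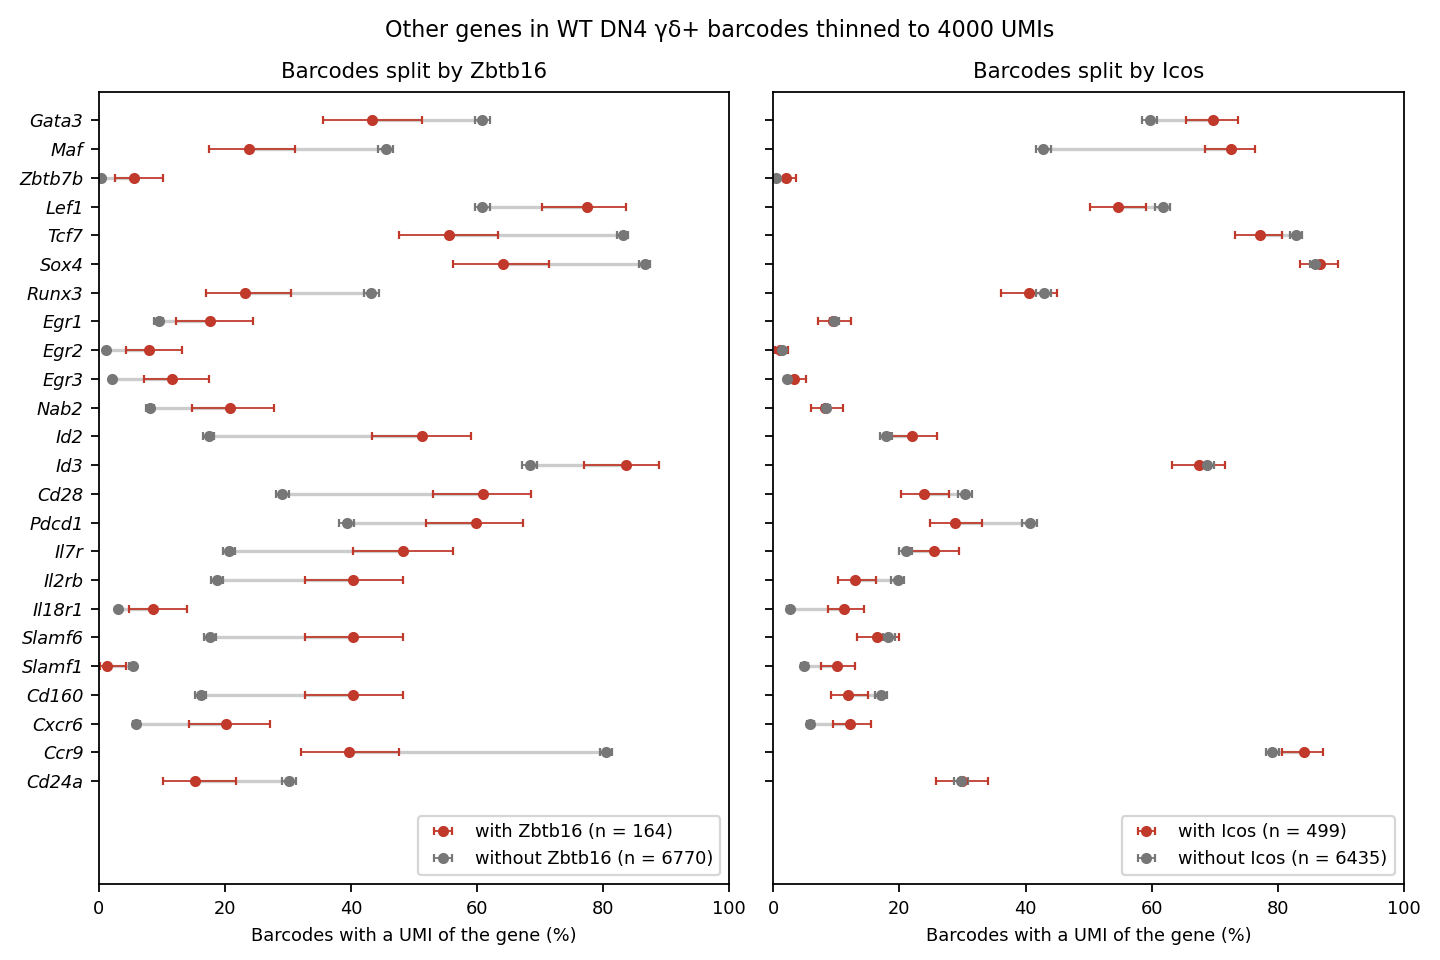
Percent of DN4 γδ+ barcodes, thinned to 4000 UMIs, with a UMI of 24 other genes, for barcodes with (red) and without (grey) Zbtb16 on the left and Icos on the right, with exact Clopper-Pearson 95% intervals. Maf lies below the grey point in Zbtb16 barcodes (23.8 against 45.5%) and above it in Icos barcodes (72.5 against 42.8%).

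By ratio of shares, the genes most marked in Zbtb16 barcodes of DN4 γδ+, among those in at least 2% of barcodes, were Ccr10 (22.6 and 2.87%), Tnni1 (14.6 and 1.88%), Fcer1g (18.9 and 2.64%), Nt5e (31.1 and 4.58%) and Hmga2 (18.3 and 2.73%). Ccr10 is a chemokine receptor of skin and mucosa, Tnni1 a muscle troponin, Fcer1g the Fc receptor γ chain and Nt5e the ectonucleotidase CD73. For Il4 barcodes they were Zbtb16 itself (43.5 and 1.99%), Ccr10 (32.3 and 3.07%), Tnni1, Nt5e and 6330403K07Rik. In DN3b γδ+ the 80 thinned barcodes with Zbtb16 were led by Tnfsf8 (16 of 80, and 4.70% of the rest), the CD30 ligand, with Ccr10 (21.2 and 5.46%) among the first 5 again. In that library 3 of 11 transcription factors, 3 of 8 costimulatory, 1 of 7 cytokine receptor and 2 of 7 SLAM and SAP pathway genes were above and 0 below. Of 10 genes downstream of TCR signalling 1 was above and 0 below. The genes named next were chosen after their values were seen. Gata3 was above (62.5 and 48.1%), as were Pdcd1 (56 of 80, and 43.8%), Il2rb (12.5 and 3.42%) and Slamf6 (27.5 and 12.0%), where 3.07% of the 8449 genes compared were above and 1.09% below. For the 93 thinned Icos barcodes of DN3b γδ+, 1.93% of genes were above and 1.23% below. Of 11 transcription factors 1 was above and of 10 genes downstream of TCR signalling 1 was above, with 0 below in either list, and these were Maf (18.3 and 7.10%) and Nfatc1 (40.9 and 25.8%).

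Of the Il4 barcodes of DN4 γδ+ (62 after thinning), 27 were also Zbtb16 barcodes, and the genes named here beyond the leading 5 were chosen after their values were seen. Where 2.82% of genes were above and 3.26% below, Id2 was in 66.1% against 17.8%, Zbtb7b in 11.3% against 0.393% and Cd28 in 66.1% against 29.5%. Il21, a cytokine of helper cells, was in 4.84% against 0.0582%, which rests on few barcodes. Il21 and Zbtb7b, like Tnf below, were in fewer than 2% of all barcodes, so the shares of genes above and below do not cover them. Among γ chain genes, Tcrg-V1 was in 27.4% against 13.1% and Tcrg-C4 in 91.9% against 72.8%. Cd40lg barcodes (42), beside 2.22% of genes above and 2.39% below, had Id2 in 69.0% against 17.9%, Tnf in 11.9% against 0.827% and Tnfrsf9 (4-1BB) in 35.7% against 7.47%. Of the other type 2 cytokine genes, Il5 and Il9 had no UMI in thinned DN4 γδ+ barcodes.

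Of the Icos barcodes of DN4 γδ+ (499 after thinning), 34 were also Zbtb16 barcodes, and the genes are again named after their values were seen. With 5.72% of genes above and 4.41% below, Maf was in 72.5% against 42.8% and Gata3 in 69.7% against 59.7%. None of the 9 genes downstream of TCR signalling was above or below. Cd28 (23.8 against 30.3%), Pdcd1 (28.9 against 40.6%) and Il2rb (13.0 against 19.7%) were below. The leading genes by ratio were Il17re (13.2 and 2.69%), a receptor chain for IL-17 family cytokines, Il18r1 (11.2 and 2.56%), Plekhf1, Gm26614 and Zbtb16.

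The thinned DN4 γδ+ barcodes were also split by both genes, after the values above were seen, so the shares of this split restate them and are a description. Il4 was in 29.4% of the 34 barcodes with both, 13.1% of the 130 with Zbtb16 only, 1.94% of the 465 with Icos only and 0.412% of the 6305 with neither. Cd40lg was in 20.6, 5.38, 2.37 and 0.270% in that order. Gata3 was in 47.1, 42.3, 71.4 and 60.0%. Il17re was in 2.94, 1.54, 14.0 and 2.71%, highest in barcodes with Icos only, although the interval for the 34 with both (0.0744–15.3%) overlaps. Zbtb7b was in 17.6, 2.31, 0.860 and 0.333%, Id2 in 79.4, 43.8, 17.8 and 17.4% and Il7r in 76.5, 40.8, 21.7 and 20.6%. Sox4, in 35.3, 71.5, 90.5 and 86.3%, was lowest in barcodes with both (19.7–53.5%, against 63.0–79.1% with Zbtb16 only). Cd24a, which encodes an immaturity marker, was in 5.88, 17.7, 31.6 and 30.01%, with overlapping intervals for both (0.720–19.7%) and Zbtb16 only (11.6–25.4%).

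Markers of other cell types were read in the 355 Zbtb16 barcodes of DN4 γδ+ before thinning. T cell markers were present (10 of 10), summing to 3878 CPM against 5249 CPM without Zbtb16. Of NK markers 4 of 6 were seen at 27.1 against 20.7 CPM, with Ncr1 and Klra8 at 0, and of group 2 innate lymphoid cell markers 5 of 8 at 49.2 against 87.6 CPM, with Klrg1, Nmur1 and Il5 at 0. Mast cell and basophil markers, whose cells also make IL-4, were at 1 of 7 and 0.892 against 0.638 CPM, with Fcer1a, Mcpt8 and Gata2 at 0. B cell markers were at 9 of 10 and 215 against 461 CPM, and the αβ T and NKT list at 8 of 8 and 2693 against 3662 CPM.

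Over the 7 libraries, the genes with profiles most like these, by Pearson r of log2(CPM + 1) among 7030 genes, were Cd226, Il2rb and Ubash3b for Zbtb16, at r of 0.995 each. For Il4, Il13 and Cd40lg they were the same 3 genes, Gimap3, Samhd1 and S1pr1, and for Icos they were Ttc28, Gimap6 and Itgb3. These values describe 7 points of which 1, DN4 γδ+, lies far from the others, and the same libraries and depths lie behind every profile.

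Related genes showed how general the DN4 γδ+ levels were. Relative to DN3b γδ+, where 22.2% of all genes were over 2-fold higher and 8.31% lower, 7 of 11 effector cytokine genes compared were higher and 1 lower, with a median log2 ratio of 1.29 where the median of all genes was 0.26. Among them Ltb was at 10.2-fold and Lta at 5.54-fold, Ifng at 0.828-fold and Tnf at 0.447-fold. Of 16 costimulatory genes 6 were higher and 0 lower, with a median of 0.70, from Tnfrsf18 at 4.16-fold to Cd28 at 0.565-fold. The genes downstream of TCR signalling were mostly level, with 1 of 10 higher, Id2 at 2.72-fold, and a median of 0.02. Relative to DN4 γδ−, where 26.7% of all genes were higher, all 10 of these were higher, with a median of 2.70 where all genes had 0.29, as were 11 of 12 cytokine genes, with a median of 4.30.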

How the data were processed

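Single-cell 3′ libraries of 7 sorted mouse thymocyte populations, 1 per group, were analysed from the UMI counts per gene and barcode that the authors deposited. Per the labels these came from Cell Ranger 5.0.1 on mm10 with an edited Trdc gene, whereas the file headers name Cell Ranger 4.0.0, and the authors' later steps used Seurat 3.1.5 in R 3.6.3. A barcode needed 200 or more genes and no more than 15% of UMIs from mitochondrial genes, and those with at most 1 UMI of Cd79a, Cd79b and Ms4a1 together were called thymocytes, which also removes B cell and T cell doublets. B barcodes had at least 10 UMIs of these 3 genes and at least 2 times their Cd3d, Cd3e and Cd3g UMIs. Noncycling barcodes had at most 1 UMI of Mki67, Top2a, Birc5, Ube2c and Cdk1. Counts were summed per library and given as CPM. Intervals are exact at 95% (Poisson for levels, Clopper-Pearson for shares, conditional binomial for ratios), cover counting error only, and 0 was replaced by 3 counts per library in a ratio. Ratios were compared for genes with at least 10 UMIs over both libraries. No test was run, because a group was 1 library and cells are not replicates. Thinning to 4000 UMIs was done once with a fixed seed. The genes, gene lists and comparisons were chosen with earlier results of these data known. Other genes were named by rule: list genes with and without Zbtb16 in DN4 γδ+ (mostly those whose intervals did not overlap, chosen after their values were seen), the 2 highest and 2 lowest of a list by ratio among genes with at least 5 CPM in 1 library, the 3 genes most alike over libraries with at least 20 CPM in 1 of them, and the 5 leading genes by ratio of shares among those in at least 2% of barcodes, with exceptions stated where they occur. A further transcription factor was taken out of its list and is not reported here. Promoter windows came from a RefSeq table, which matched Il4 and Il13. Scripts were tested on simulated data and ran in Python 3.11.15 with pandas 2.3.3, scipy 1.17.1 and numpy 2.4.6, and TMM scaling, an alternative, used edgeR 4.0.16 in R 4.3.3.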

Additional observations from a re-analysis of the deposited data

How the results depend on the processing

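Of the log2 ratios of the 5 genes under 9 alternative settings, 213 of 216 kept their sign over 26 results. Part of this count was fixed in advance. Lifting the minimum of 10 UMIs changes no ratio, and subtracting the B barcode level changes none where B barcodes held no UMI of the gene. Ratios that could not be formed in a setting were not counted. The exceptions were ratios whose intervals span 0 in the main setting: Il13 in DN3b γδ+ relative to DN3a (−0.01 when no B cell gene UMI was allowed, against 0.46), and, after thinning, Icos in Lat-/- DN3 γδ− relative to DN3a (−0.23, against 0.28) and in Lat-/- DN3 γδint relative to Lat-/- DN3 γδ− (0.38, against −0.30). TMM scaling shifted the log2 ratios of a comparison by −0.74 to 0.32. The number of genes over 2-fold higher in DN3b γδ+ than in DN3a was 1, and 2 without the quality filter, among noncycling barcodes or with TMM. In DN3b γδ+ relative to DN3b γδ− it was 4. It was 2 after thinning or among noncycling barcodes, where Il4 and Cd40lg had under 10 UMIs and were not counted. In DN4 γδ+ relative to DN4 γδ− it was 5, and 3 among noncycling barcodes. The number over 2-fold lower in Lat-/- DN3 γδint than in DN3b γδ+ was 1, with 2 among noncycling barcodes and 3 with TMM. The share of DN3b γδ+ barcodes with Zbtb16, 2.47%, was 0.737% thinned, 0.885% in noncycling barcodes and 0.591% when 2 UMIs were asked for. In DN4 γδ− the 0.139% became 0.0762, 0.630 and 0.0618% in these settings. In DN4 γδ+ the 4.08% became 2.37, 2.49 and 1.85% and 3.04% without the 8% of barcodes with the most UMIs, as candidates for doublets. Co-detection in Zbtb16 barcodes of DN4 γδ+ was 16.5% thinned and 34.8% at 2 or more Zbtb16 UMIs for Il4, 4.88 and 14.3% for Il13, 20.7 and 47.2% for Icos, and 8.54 and 22.4% for Cd40lg. Thinning leaves fewer UMIs by its construction, and beyond that the cause of these changes was not tested. No paired analysis was possible because each group had 1 library and no test was run, and no replicate could be left out. Depth limits the Lat-/- libraries most, where 3 counts are 0.0596 and 0.0793 CPM, above the levels of Il13 in DN3b γδ+ and of Il4 and Il13 in DN4 γδ−.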
